A study of Mus musculus with 22 samples.

Results

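The loss of NF110 was examined through the RNA that an antibody against NF90 and NF110 brings down from mouse embryonic stem cells. For every gene, the enrichment in the immunoprecipitate (IP) of a pair was taken as log2(IP FPKM + 1) minus log2(input FPKM + 1), where FPKM is the deposited fragment density per transcript length and library size. The 3 values in NF110 KO cells were compared with the 3 values in WT cells, so a negative difference means less enrichment without NF110. Genes with an FPKM of at least 1 in 3 or more of the 12 libraries were tested, which were 12429 of 22330 genes in the deposited table.

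The cells were NF110 KO, lacking the longer isoform, NF90+NF110 KO, lacking both, or NF90/NF110 WT (here WT). Each genotype had 3 IP and 3 input libraries, and the 12 libraries of NF110 KO and WT are among 22 in the series. All groups were grown with the cytokine LIF, the MEK inhibitor PD0325901 and the GSK3 inhibitor CHIR99021. The IP libraries were made with the anti-NF90/NF110 clone 21/DRBP76, and all of these libraries with a kit that removes ribosomal RNA. The labels do not say how the deletions were made or whether a genotype is a single clone, so the p-values measure only the spread between these libraries, which may be technical.

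NF90 and NF110 are protein isoforms that share tandem double-stranded RNA-binding domains and differ in their C termini, NF110 being the longer. Both form heterodimers with NF45, the product of Ilf2. The complexes have been tied to transcription, to the processing of microRNA precursors and to the stability and translation of mRNAs. RNA immunoprecipitation sequencing (RIP-seq) compares the RNA that comes down with a protein with the RNA of the lysate. An antibody that sees both isoforms still has NF90 to bind in NF110 KO cells, and neither isoform in NF90+NF110 KO cells.

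Reads assigned to genes numbered 14.1 to 19.03 M per NF110 KO IP and 14.4 to 17.4 M per WT IP, and 9.53 to 10.9 M per NF110 KO input and 10.8 to 11.9 M per WT input. The 10 embryonic stem cell markers were expressed in all 12 libraries, with Pou5f1 at 687 to 886 FPKM. Of 12 fibroblast and feeder cell markers, 10 stayed under an FPKM of 1 in every library and Postn was at 0. Their summed FPKM ran from 4.47 to 7.57 in NF110 KO libraries and from 4.90 to 6.73 in WT libraries. The neural list summed to 39.8 to 52.1 FPKM in NF110 KO libraries and 39.0 to 52.3 in WT libraries, and the trophectoderm list to 82.7 to 123.3 in NF110 KO libraries and 75.5 to 131 in WT libraries.

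One predicted gene, Gm16853, set the NF110 KO libraries apart. Its FPKM was 3.25, 3.68 and 2.27 in NF110 KO IPs, against 0.65, 0.40 and 0.27 in WT IPs, and 3.48, 4.72 and 2.98 in NF110 KO inputs, against 0.76, 0.54 and 0.52 in WT inputs. All 6 NF110 KO libraries stood above all 6 WT libraries, and the NF90+NF110 KO libraries held 0.26 to 0.47. Gm16853 was the only gene called between NF110 KO and WT inputs (log2 difference 1.54, SE 0.15, adjusted p = 0.0302, limma). At most 4 whole reads per library were counted to it, its span overlaps another gene, and it was named after its values were seen. Its enrichment did not separate the groups (difference -0.05, adjusted p = 0.715), since IP and input differed alike. Ilf2, the gene of NF45, did not pass either (0.08, adjusted p = 0.515).

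Enrichment in the IP was less pronounced in NF110 KO cells in both directions. At an adjusted p under 0.05, hereafter called, limma found 887 of 12429 genes (7.14%), of which 456 were lower in NF110 KO (3.67%) and 431 higher (3.47%). The shifts were small: 18 called genes reached 2-fold, 1 of them lower and 17 higher, and the median difference was -0.35 over the lower genes and 0.50 over the higher genes. Of the 456 genes called lower, 443 were enriched in WT IPs on average, and of the 431 called higher, 42 were. Among all 12429 genes, 6554 (52.7%) were. The lower genes had a median enrichment of 0.08 in NF110 KO pairs, 0.30 in NF90+NF110 KO pairs and 0.44 in WT pairs. The higher genes had medians of 0.18 in NF110 KO pairs, -0.13 in NF90+NF110 KO pairs and -0.39 in WT pairs. These counts and medians describe genes chosen on the difference between NF110 KO and WT, a choice that by itself favours high or low WT values, and carry no test.

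The calls lay close to the threshold, with adjusted p-values from 0.037 to 0.0499, while 3940 genes (31.7%) had an unadjusted p under 0.05 and the values of 4737 (38.1%) did not overlap between the groups. Fitting only the 6 pairs compared gave 0 calls with 3959 genes at an unadjusted p under 0.05, and leaving out WT pair 2 or 3, NF110 KO pair 2 or 3, or NF90+NF110 KO pair 1 left 0 to 2, with 2746 to 3840 genes at an unadjusted p under 0.05. Without WT pair 1 there were 532 calls and without NF110 KO pair 1 there were 1690. On whole reads recovered from the normalised counts, edgeR called 2494 genes and DESeq2 1567.

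Over the called genes the median difference was larger in size in the input than in the IP. Over the 456 genes called lower, the median IP difference between NF110 KO and WT was -0.14 and the median input difference was 0.21. Over the 431 called higher, the IP difference was 0.16 and the input difference -0.35. The input part was the larger one in 293 of the lower genes (64.3%) and 336 of the higher genes (78.0%), and in 7609 of all 12429 genes (61.2%). The share among the lower genes was thus near that of all genes. By itself the IP gave 0 calls between NF110 KO and WT (limma). An unadjusted p under 0.05 was found there for 696 genes (5.6%), and neither edgeR nor DESeq2 was run on the IP alone. The input gave 1 call (0.00805%), Gm16853, with 2041 genes (16.4%) at an unadjusted p under 0.05. The IP and input medians of the called genes describe genes chosen on the difference in enrichment. That choice by itself favours opposite signs in IP and input, and these medians carry no test.

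**Figure D1:**
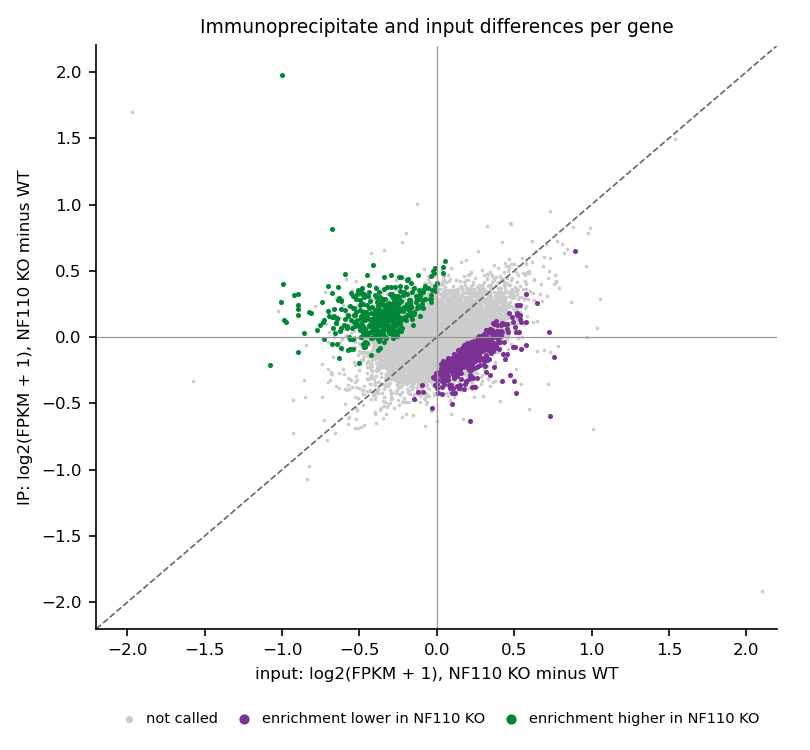
Each point is a gene, with the NF110 KO minus WT difference of log2(FPKM + 1) in the inputs on the x axis and in the IPs on the y axis, and the dashed line marks equal differences. Genes called lower lie to the right of the line, with a median input difference of 0.21 and IP difference of -0.14, and genes called higher lie to its left, with -0.35 and 0.16.

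The range of enrichment over genes was narrower in every NF110 KO pair than in any WT pair. The SD over genes of log2 enrichment was 0.309, 0.305 and 0.322 in NF110 KO pairs, against 0.354, 0.359 and 0.403 in WT pairs. It was 0.341, 0.339 and 0.330 in NF90+NF110 KO pairs. By this SD, NF110 KO pairs were thus the flattest of the 9. The NF110 KO minus WT difference of means was -0.06 (two-sided exact permutation test, p = 0.1, the smallest that 3 pairs against 3 allow). Genes enriched by at least 0.5 made up 3.58% ± 0.53 of the genes in NF110 KO pairs and 6.37% ± 1.43 in WT pairs (SD, n = 3 each). Genes depleted by at least 0.5 made up 4.78% ± 0.35 in NF110 KO pairs and 8.03% ± 1.25 in WT pairs (SD, n = 3 each). Each of these shares also separated all NF110 KO pairs from all WT pairs, with p = 0.1 in the same exact test. In NF90+NF110 KO pairs the enriched shares were 5.12%, 5.31% and 3.85%, overlapping those of both NF110 KO and WT pairs. The depleted shares there were 5.31%, 5.90% and 5.66%, above every NF110 KO pair and below every WT pair.

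The same flattening appeared when genes were ordered by their enrichment in NF90+NF110 KO, a value that uses none of the 12 libraries compared. The genes were cut into 5 equal classes. In the class with the highest enrichment there, the median enrichment was 0.27, 0.19 and 0.21 in NF110 KO pairs, against 0.33, 0.35 and 0.41 in WT pairs. In the lowest class it was -0.26, -0.21 and -0.22 in NF110 KO pairs, against -0.32, -0.31 and -0.37 in WT pairs. The groups did not overlap in either class, but these medians come from the same 6 pairs as the SDs and are no separate support. The median difference per gene ran through 0.08, 0.04, -0.02, -0.06 and -0.16 from the lowest to the highest class. Calls lower in NF110 KO made up 0.483% of the lowest class and 11.5% of the highest, and calls higher in NF110 KO 5.95% of the lowest and 1.05% of the highest. The share called lower was largest among the RNAs that came down best without either isoform. The NF90+NF110 KO pairs also entered the estimate of spread behind these calls, so the calls are not free of the ordering values. Library depth overlapped between the groups, in the inputs only through replicate 1, at 10.9 M reads in NF110 KO and 10.8 M in WT. NF110 KO inputs 2 and 3, at 9.53 and 9.99 M, lay below every WT input. The part of depth in the result was not tested.

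**Figure D2:**
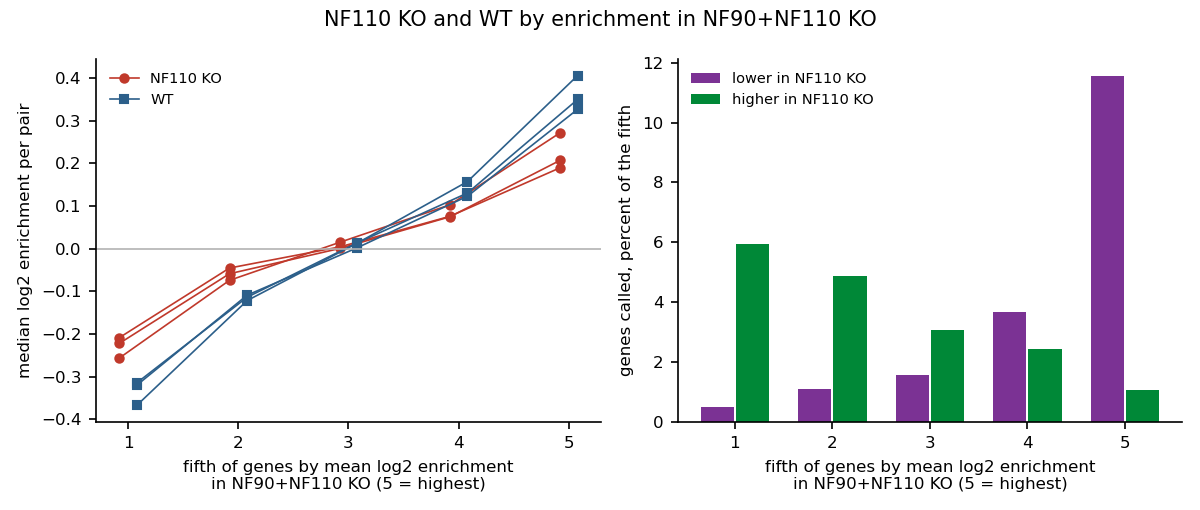
The left panel plots the median log2 enrichment of each NF110 KO and WT pair over 5 equal groups of genes ordered by enrichment in NF90+NF110 KO, and the right panel the percentage of each group called lower or higher in NF110 KO. In the highest group the NF110 KO pairs lie at 0.19 to 0.27 and the WT pairs at 0.33 to 0.41, and 11.5% of its genes are called lower.

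Gene span and level gave smaller gradients in the median difference. With genes cut into 5 equal classes by span, the median difference was 0.00 in the longest class and -0.09 in the shortest, up to 7345 bases on GRCm38, with input medians of -0.07 and 0.09 and IP medians of -0.04 and 0.01. By mean FPKM the median difference was 0.00 in the lowest class and -0.07 in the highest. Calls lower in NF110 KO were rarer among low genes, at 1.25% in the lowest class by mean FPKM against 5.39% in the highest. Calls higher made up 2.45% of the lowest class, 4.55% of the middle and 2.65% of the highest. By span, calls higher made up 1.13% of the shortest class, 5.97% of the 4th and 3.31% of the longest. At the edge of the expression filter, the 133 genes with exactly 3 libraries at an FPKM of 1 had a median difference of 0.04, and the 200 genes left out with exactly 2 such libraries also 0.04.

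The largest losses of enrichment included several weakly expressed genes. Fgf22, a fibroblast growth factor gene, had an enrichment of -0.91, -1.26 and 0.09 in NF110 KO pairs, against 1.02, 0.38 and 0.49 in WT pairs (difference -1.32, SE 0.31, adjusted p = 0.0427). The groups did not overlap, but NF110 KO pair 3 was far above the other NF110 KO pairs, and each library held only 4 to 17 reads. Prap1 (-0.93; 2 to 11 reads per library), the lens crystallin gene Crybb3 (-0.91; 3 to 14 reads), Ccdc74a (-0.62; 8 to 22 reads) and Msmp (-0.60; 0 to 3 reads, in a span that overlaps Rgp1) rested on as little. edgeR on the whole reads called Fgf22 and Crybb3 and did not call Prap1 (adjusted p = 0.163), Ccdc74a (adjusted p = 0.085) or Msmp (adjusted p = 0.509).

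Better covered genes at the same end were Ppp1r13l, Rpl36, Adat3, Rangrf and Hist3h2ba. Ppp1r13l encodes iASPP, an inhibitor of p53. Its enrichment was 0.24, -0.03 and -0.04 in NF110 KO pairs, against 0.81, 0.52 and 0.73 in WT pairs (difference -0.63, SE 0.10, adjusted p = 0.037). All NF110 KO pairs lay under all WT pairs, with IPs of 9.24, 8.63 and 7.67 FPKM in NF110 KO against 11.004, 10.2 and 10.6 in WT, and inputs of 7.69, 8.86 and 7.91 FPKM in NF110 KO against 5.86, 6.79 and 5.97 in WT. Rpl36, a ribosomal protein gene depleted from every IP, was at -0.80, -0.81 and -1.07 in NF110 KO pairs, against -0.29, -0.33 and -0.18 in WT pairs (difference -0.63, SE 0.16, adjusted p = 0.0491). Its IPs overlapped between the groups and its inputs did not: 248, 307 and 373 FPKM in NF110 KO, against 180.3, 239 and 199 FPKM in WT. Rpl36 belongs to a family with many near-identical copies, so its counts are uncertain.

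Adat3, which encodes a subunit of the tRNA adenosine deaminase, was at -0.05, -0.69 and -0.60 in NF110 KO pairs, against 0.16, 0.37 and 0.38 in WT pairs (difference -0.75, SE 0.18, adjusted p = 0.0448), and its span overlaps Scamp4. Rangrf, a guanine nucleotide release factor gene whose span overlaps Slc25a35, differed by -0.76 (SE 0.13, adjusted p = 0.038). Hist3h2ba, a histone H2B gene, differed by -0.69 (SE 0.11, adjusted p = 0.037) with an IP difference of 0.04 and an input difference of 0.72, so that its shift was almost wholly in the input. Input levels of Hist3h2ba were 21.1, 17.4 and 17.7 FPKM in NF110 KO and 11.2, 9.66 and 11.98 FPKM in WT.

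At the other end stood zinc finger genes and small housekeeping genes whose RNA was depleted from WT IPs and less so, or not, from NF110 KO IPs. Lsm5, a subunit of the LSM ring that binds the tails of U6 RNA and of mRNAs in decay, was at 0.01, 0.44 and 0.08 in NF110 KO pairs, against -1.21, -1.51 and -1.23 in WT pairs (difference 1.49, SE 0.21, adjusted p = 0.037). The NF110 KO pairs were well apart from the WT pairs. Lsm5 IPs held 24.0, 23.1 and 14.9 FPKM in NF110 KO, against 17.7, 7.70 and 9.77 FPKM in WT, and inputs 23.7, 16.8 and 14.1 FPKM in NF110 KO, against 42.3, 23.8 and 24.2 FPKM in WT. The IPs overlapped between the groups, and the inputs were lower in every NF110 KO library than in any WT library. Cox20, an assembly factor of cytochrome c oxidase, was at -0.77, -0.08 and -0.53 in NF110 KO pairs, against -1.64, -1.32 and -1.63 in WT pairs (difference 1.07, SE 0.18, adjusted p = 0.037). Its span overlaps Hnrnpu. Trappc2, a subunit of the TRAPP tethering complex on chromosome X whose span overlaps Ofd1, differed by 1.27 (SE 0.23, adjusted p = 0.038), with 10 to 62 reads per library.

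Among the 10 largest gains, 4 were C2H2 zinc finger genes. Zfp936 was at 0.33, 0.66 and 0.85 in NF110 KO pairs, against -0.54, -0.58 and -1.22 in WT pairs (difference 1.40, SE 0.23, adjusted p = 0.037). Its NF110 KO inputs of 4.22, 2.77 and 3.47 FPKM lay under the WT inputs of 6.69, 7.36 and 9.90 FPKM, while the IPs were 5.57, 4.97 and 7.05 FPKM in NF110 KO and 4.27, 4.59 and 3.68 FPKM in WT. Zfp808 (1.14), Zfp930 (1.09) and Zfp534 (1.06) showed the same order of groups, each with a larger input than IP part. Genes of this family have near-identical copies between which reads may have been split. The other gains, Rps27rt (2.98), Tmsb15l (1.22) and Glipr1 (1.01), had 0 to 2 whole reads in any library in the second deposited table, so that almost no counted reads stand behind their FPKM.

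**Figure D3:**
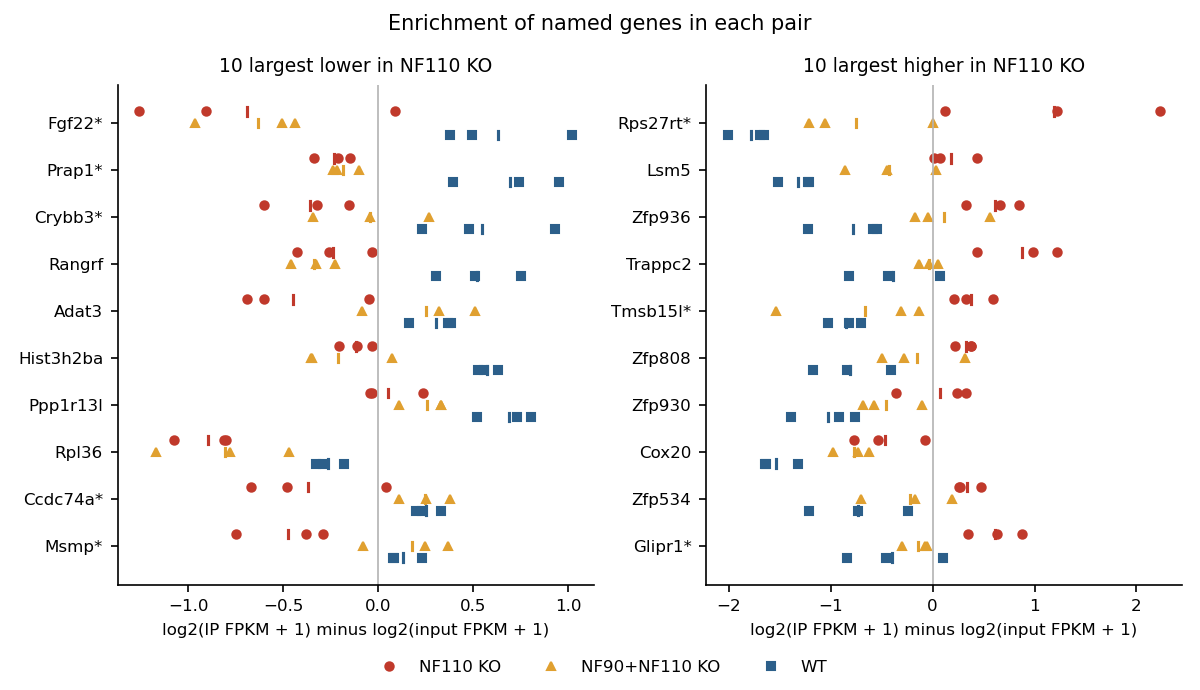
Log2 enrichment in each pair (points) and its mean (ticks) for the 10 genes with the largest called difference in each direction, with NF110 KO above NF90+NF110 KO and WT below. An asterisk marks genes with at most 22 reads in each of the 12 libraries; NF110 KO and WT points do not overlap for any of these genes, which was a condition for naming them.

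Gene lists were read against the shares of 3.67% lower and 3.47% higher and against the median difference of -0.03 over all genes. The lists were chosen with earlier results of these data known, and they are described here by counts and medians without a test. Of 35 lists made, cell type markers included, 14 are described. In the fits that left 0 to 2 calls in all, the counts of the lists fell as well.

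Of 15 basement membrane and matrix genes tested, 5 were called lower, 0 higher, and the values of 11 lay wholly lower in NF110 KO, where 20.9% of all genes did. The median difference was -0.30, with an IP part of -0.11 and an input part of 0.21. Hspg2, which encodes perlecan (chromosome 4, 137468751 to 137570630), was at 1.03, 0.65 and 0.63 in NF110 KO pairs, against 1.20, 1.25 and 1.56 in WT pairs (difference -0.57, SE 0.13, adjusted p = 0.0416). Every NF110 KO pair was under every WT pair, and NF90+NF110 KO pairs were at 1.30, 1.39 and 1.18. Lama5, the laminin alpha 5 gene (chromosome 2, 180176373 to 180225904), was at -0.07, -0.28 and -0.18 in NF110 KO pairs, against 0.17, 0.27 and 0.53 in WT pairs (difference -0.50, SE 0.10, adjusted p = 0.0387). Col4a2, a collagen IV chain gene (chromosome 8, 11312805 to 11449287), was at 0.67, 0.40 and 0.45 in NF110 KO pairs, against 0.88, 0.94 and 1.04 in WT pairs (difference -0.45, SE 0.09, adjusted p = 0.0387). The laminin gene Lamb2 and the fibronectin gene Fn1 were the other called members, each at -0.30. All 15 members were below 0 in the difference, called or not, and the list median of enrichment was 0.02 in NF110 KO, 0.01 in NF90+NF110 KO and 0.17 in WT. Of the 12 fibroblast and feeder markers, the 2 that could be tested had a median difference of -0.31 with neither called. All 7 trophectoderm markers tested (median -0.14, with Krt8 called lower at -0.32) and all 4 neural markers tested (median -0.10, with the smallest adjusted p at 0.213, for Tubb3) were below 0 as well. Of 4 endoderm markers tested 2 were below 0 (median -0.002), and the 1 mesoderm marker tested was at -0.06. Of 10 embryonic stem cell markers 6 were below 0, with a median of -0.03, equal to that of all genes. The part of these markers in the result was not tested.

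C2H2 zinc finger genes, many of which silence transposons through KRAB domains, leaned the other way. Of 360 tested, 36 were called higher and 11 lower, and the values of 113 lay wholly higher and of 51 wholly lower in NF110 KO (17.2% and 20.9% of all genes). The median difference was 0.08, with medians of -0.03 in the IP and -0.13 in the input. Among genes with a mean FPKM of at least 5 the list median was -0.04, with 28 called higher and 22 lower. All 9009 genes at that level also had a median of -0.04, with 859 called higher and 963 lower. At that level the list median thus did not depart from that of all genes. The members with the smallest p were Zfp936, Zfp607 and Zfp942. Zfp607 was at 0.07, 0.13 and 0.03 in NF110 KO pairs, against -0.47, -0.43 and -0.69 in WT pairs (difference 0.61, SE 0.09, adjusted p = 0.037). Zfp942 was at -0.22, -0.17 and 0.11 in NF110 KO pairs, against -0.70, -0.82 and -0.97 in WT pairs (difference 0.74, SE 0.11, adjusted p = 0.037), and NF90+NF110 KO pairs were at -0.19, 0.00 and 0.00, above WT as well.

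Of 32 genes for translocation into the endoplasmic reticulum (ER) 5 were called higher and 0 lower, with a median difference of 0.14 and 8 members below 0. The median IP part was 0.20 and the median input part -0.01. Ssr3, a subunit of the translocon-associated complex, was at -0.41, -0.20 and -0.14 in NF110 KO pairs, against -0.85, -0.94 and -1.06 in WT pairs (difference 0.70, SE 0.14, adjusted p = 0.0387). Sec62 and Sec63, partners of the SEC61 channel, differed by 0.46 (SE 0.10, adjusted p = 0.0398) and 0.50 (SE 0.12, adjusted p = 0.0427), with NF110 KO above WT in all pairs. The signal peptidase gene Spcs3 (0.60) and the signal recognition particle gene Srp54b (0.67) were also called, and were named after their values were seen.

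Chaperones and chaperonins had a list median of 0.15, the highest of the 14 lists described. Of 25 members 2 were called higher and 0 lower. The values of 12 lay wholly higher and of 1 wholly lower, where 17.2% and 20.9% of all genes did. Canx, the ER lectin calnexin, was at -0.11, 0.02 and 0.07 in NF110 KO pairs, against -0.26, -0.33 and -0.42 in WT pairs (difference 0.33, SE 0.09, adjusted p = 0.0496), and almost all of it lay in the IP (0.29). The cytosolic HSP110 gene Hspa4 differed by 0.27 (SE 0.07, adjusted p = 0.0461), with 0.01 in the IP and -0.26 in the input. Hsp90b1, the ER chaperone GRP94, stood at 0.38 without passing (adjusted p = 0.0546).

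Of 59 initiation and elongation factors 7 were called higher and 2 lower, the lower share (3.39%) being near that of all genes, while the list median was -0.04 and 0.00 under quantile scaling. Eif5, whose protein activates GTP hydrolysis by eIF2, was at 0.20, 0.28 and 0.33 in NF110 KO pairs, against -0.16, -0.49 and -0.65 in WT pairs (difference 0.70, SE 0.12, adjusted p = 0.037). Eif1a differed by 0.36 (adjusted p = 0.0385), and Eif2s3y by 0.84 (adjusted p = 0.037), though it lies on chromosome Y and has a near-identical X-linked copy. In NF90+NF110 KO, Eif2s3y was at 0, 0.04 and 4.27 FPKM in the IPs and at 0, 0 and 4.39 FPKM in the inputs. Pairs almost without this RNA thus entered the estimate of spread behind its adjusted p, and why these replicates differed was not tested. Of 86 cytosolic ribosomal protein genes 4 were called higher (4.65%) and 2 lower (2.33%), shares near those of all genes. Under quantile scaling 9 of the 86 were called higher and 0 lower, where 415 of all 12429 genes were called higher and 295 lower. Rpl39 was at -0.67, -0.41 and -0.57 in NF110 KO pairs, against -1.17, -1.23 and -1.52 in WT pairs (difference 0.76, SE 0.15, adjusted p = 0.0385). Rpl22l1 (0.75) and Rpl15 (0.50) were also called higher, and Rpl36 was called lower as described.

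Replication-dependent histone genes were called in 1 of 58 cases, Hist3h2ba. Their median difference of -0.09 (0.01 under quantile scaling) combined 0.14 in the IP with 0.21 in the input. Hist1h4h (-0.30, adjusted p = 0.102) and Hist1h4j (-0.29, adjusted p = 0.11) did not pass.

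Of 24 genes of the NF90 family and its partners 1 was called (4.17% higher, near the share of all genes), Npm1, the nucleolar protein nucleophosmin, at 0.28, 0.58 and 0.46 in NF110 KO pairs, against 0.07, 0.11 and -0.19 in WT pairs (difference 0.44, SE 0.11, adjusted p = 0.047). The decay helicase gene Upf1 (-0.24, adjusted p = 0.0506) and the RNA editing enzyme gene Adar (-0.29, adjusted p = 0.0597) were under WT in every pair without passing. Of 9 measured mRNAs reported as NF90 targets in other cells 2 were called, both lower, with a list median of -0.07. Among them was Myc, a transcription factor gene, at 0.11, 0.12 and 0.02 in NF110 KO pairs, against 0.44, 0.49 and 0.47 in WT pairs (difference -0.38, SE 0.08, adjusted p = 0.0387). Myc was weakly expressed, with 25 to 98 reads per library, and edgeR did not call it (adjusted p = 0.083). Dusp1, a phosphatase gene, did not pass (-0.24, adjusted p = 0.0512).

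Of 22 microRNA processing genes 2 were called, both lower: Srrt, which encodes the cap-complex adaptor ARS2 (-0.29, adjusted p = 0.046), and Dis3l2, an exonuclease of uridylated RNA (-0.37, adjusted p = 0.0495). The list median was 0.00. Of 30 pluripotency genes 2 were called, both lower, Myc and Utf1. Utf1, a chromatin protein of stem cells, was at 0.46, 0.25 and 0.21 in NF110 KO pairs, against 0.73, 0.63 and 0.74 in WT pairs (difference -0.39, SE 0.09, adjusted p = 0.0412). Of 22 ATF4 and unfolded protein response genes 3 were called, all lower: Ppp1r15a, a regulatory subunit that reverses eIF2 phosphorylation (-0.36), Sesn2, a stress sensor of leucine (-0.29), and the serine metabolism gene Shmt2 (-0.27). Sesn2 and Shmt2 had an IP difference of 0.00 and input differences of 0.29 and 0.27.

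Called Polycomb genes differed in direction between the complexes. Ezh2, Eed and Suz12, which form the catalytic core of PRC2, the histone H3 methyltransferase complex, were higher, and the called members of PRC1, Cbx2 and Phc1, were lower. Suz12 was at 0.03, 0.30 and 0.16 in NF110 KO pairs, against -0.25, -0.53 and -0.71 in WT pairs (difference 0.65, SE 0.15, adjusted p = 0.0399). Ezh2, the methyltransferase, was at 0.07, 0.19 and 0.20 in NF110 KO pairs, against -0.14, -0.22 and -0.35 in WT pairs (difference 0.39, SE 0.09, adjusted p = 0.0399), and Eed was at 0.33. Cbx2, the reader subunit, was at 0.31, 0.21 and 0.16 in NF110 KO pairs, against 0.59, 0.54 and 0.54 in WT pairs (difference -0.32, SE 0.06, adjusted p = 0.0385), and Phc1 at -0.52. Over the whole list of 30 the counts were 3 higher and 2 lower with a median of -0.01, and the split by complex was seen after the values were.

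Among 10 nuclear and structured noncoding RNAs 1 was called, the ribosomal RNA precursor Rn45s. It was at 0.55, 0.31 and 0.40 in NF110 KO pairs, against 0.71, 0.77 and 0.76 in WT pairs (difference -0.32, SE 0.08, adjusted p = 0.0461), and at 0.01, 0.20 and 0.25 in NF90+NF110 KO pairs. All NF110 KO pairs lay under the WT pairs and above the NF90+NF110 KO pairs. Most of the shift was in the IP, where Rn45s held 2130, 1810 and 2308 FPKM in NF110 KO, against 2270, 2421 and 2790 FPKM in WT, though these values overlapped. The kit removes ribosomal RNA, so the level also depends on that step. Mir17hg (0.46, adjusted p = 0.0811) and Pvt1 (0.27, adjusted p = 0.125) did not pass.

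**Figure D4:**
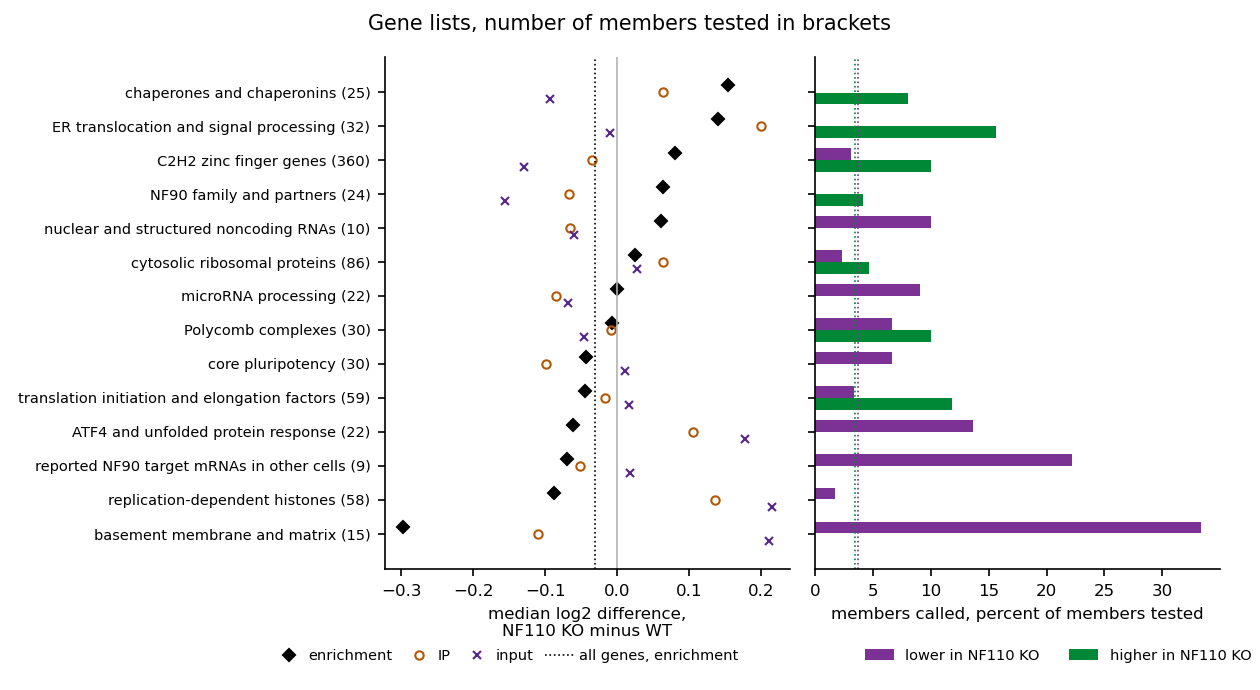
The left panel plots, for each of 14 gene lists, the median NF110 KO minus WT difference in enrichment, in the IP and in the input, with the dotted line at the median of all genes, -0.03. The right panel plots the percentage of members called lower and higher, with dotted lines at 3.67% and 3.47% of all genes; 5 of 15 basement membrane genes are called lower and 5 of 32 ER translocation genes higher.

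RNAs that came down most strongly without either isoform were enriched in the other genotypes too. An enrichment of at least 1 in all 3 NF90+NF110 KO pairs was found for 42 RNAs. Of these, 37 had a lower mean in NF110 KO than in WT, 7 were called lower and 0 higher, and the values of 25 lay wholly lower, where 3.67% of all genes were called lower and 20.9% lay wholly lower. The median over the 42 was 1.32, 1.17 and 1.22 in NF110 KO pairs, 1.54, 1.44 and 1.496 in NF90+NF110 KO pairs and 1.33, 1.43 and 1.73 in WT pairs. Rbm42, an RNA-binding protein gene, was at 3.54, 3.12 and 3.23 in NF110 KO pairs, against 3.71, 4.04 and 4.52 in WT pairs, without passing (difference -0.79, SE 0.24, adjusted p = 0.0645), and at 3.93, 3.97 and 3.69 in NF90+NF110 KO pairs. Wwp2, a ubiquitin ligase gene, was at 1.42, 1.16 and 1.13 in NF110 KO pairs, against 1.72, 1.77 and 2.02 in WT pairs (difference -0.60, SE 0.12, adjusted p = 0.0387), with -0.50 of it in the IP. Phc1, a Polycomb gene, was at 1.59, 1.39 and 1.31 in NF110 KO pairs, against 1.78, 1.91 and 2.17 in WT pairs (difference -0.52, SE 0.13, adjusted p = 0.0461). Bub1b, a spindle checkpoint kinase gene (-0.44, adjusted p = 0.16), and Golga4, a golgin gene (-0.20, adjusted p = 0.421), did not pass. Of the 5 with a higher mean in NF110 KO, the one that differed most was Hmmr, a spindle protein gene, at 1.84, 1.87 and 2.28 in NF110 KO pairs, against 1.55, 1.42 and 1.46 in WT pairs (difference 0.52, adjusted p = 0.0524). Rbm42, Wwp2, Phc1, Bub1b, Golga4 and Hmmr were named after their values were seen. Csrnp1, a nuclear protein gene outside this set and also named after its values were seen, was at 0.77, 0.43 and 0.95 in NF110 KO pairs, against 1.20, 1.21 and 1.46 in WT pairs (difference -0.57, SE 0.13, adjusted p = 0.0429).

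Enrichment also differed by chromosome, for the 12392 tested genes placed on GRCm38. The median difference was lowest on chromosomes 7 (-0.10), 15 (-0.09) and 11 (-0.08) and highest on X (0.12) and 13 (0.07), with chromosome Y, at 4 genes, left aside. Over the 395 genes of chromosome X the median enrichment was 0.04, 0.08 and 0.11 in NF110 KO pairs, against -0.03, -0.03 and -0.10 in WT pairs. The groups did not overlap, 28 genes were called higher (7.09%) and 3 lower (0.759%), against 3.47% and 3.67% of all genes, and the median input difference was -0.09 against 0.01 in the IP. Over the 1012 genes of chromosome 7 the medians were 0.04, -0.02 and -0.03 in NF110 KO pairs, against 0.06, 0.07 and 0.07 in WT pairs, with 63 genes called lower (6.23%) and 19 higher (1.88%). Chromosome 6 behaved differently: its 590 genes had a median difference of 0.12 in the IP and 0.12 in the input, and of -0.01 in enrichment. Single genes departed from these medians: of Lsm5, Ezh2 and Phc1, which lie there, Lsm5 and Ezh2 had lower inputs in NF110 KO (-0.68 and -0.18) and Phc1 a lower IP (-0.38), none of them called on one side alone.

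**Figure D5:**
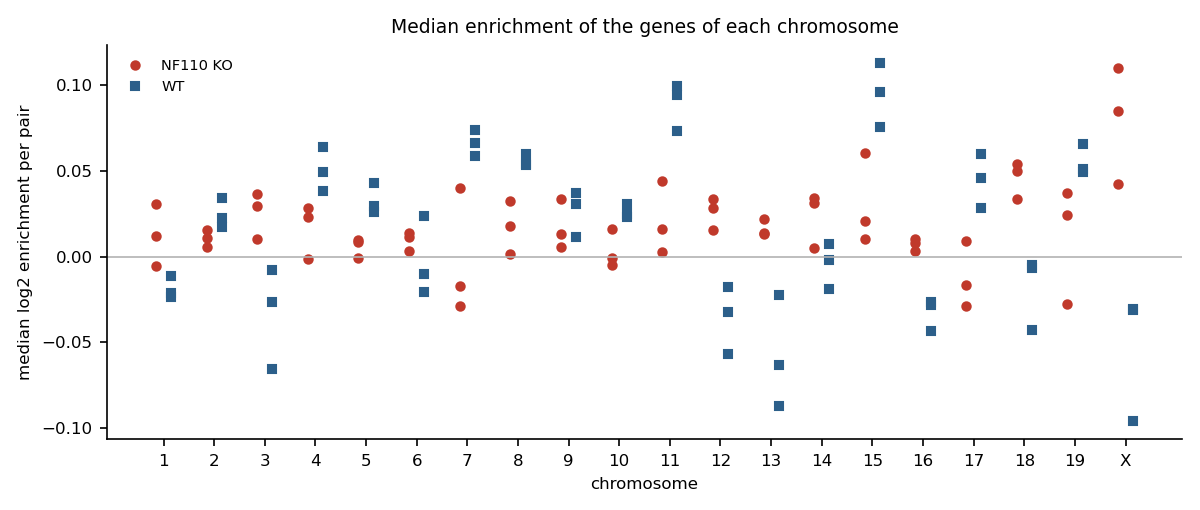
Median log2 enrichment of the tested genes of each chromosome in each NF110 KO and WT pair; chromosome Y, with 4 genes, is not drawn. NF110 KO pairs lie above WT pairs on X (0.04 to 0.11 against -0.10 to -0.03) and below them on chromosome 11 (0.00 to 0.04 against 0.07 to 0.10).

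NF90+NF110 KO pairs gave a second reading against the same WT pairs. Limma called 1 gene there (0.00805%) and 2815 (22.6%) had an unadjusted p under 0.05, while edgeR called 1182 and DESeq2 719 genes. The called gene was Chchd1, a mitochondrial ribosome component, at -0.30, -0.19 and -0.24 in NF90+NF110 KO pairs, against 0.37, 0.52 and 0.40 in WT pairs (difference -0.68, adjusted p = 0.0362). In NF110 KO pairs it was at 0.54, 0.64 and 0.45 (difference from WT 0.11, adjusted p = 0.309), and the knockouts differed by 0.79 (adjusted p = 0.00896). Tested directly, NF110 KO and NF90+NF110 KO differed in 537 genes (4.32%), 277 lower (2.23%) and 260 higher (2.09%) in NF110 KO, with 0 left without NF110 KO pair 2 or NF90+NF110 KO pair 1 (2447 and 2468 genes at an unadjusted p under 0.05). Among the named genes they differed in Npm1 (0.49, adjusted p = 0.048), Canx (0.37, adjusted p = 0.0489), Sec62 (0.43, adjusted p = 0.0496), Sesn2 (-0.30, adjusted p = 0.0496) and Ppp1r15a (-0.35, adjusted p = 0.0497), which in NF90+NF110 KO differed from WT by -0.05 (Npm1), -0.04 (Canx), 0.03 (Sec62), 0.00 (Sesn2) and -0.01 (Ppp1r15a). Msmp and Rps27rt also passed, on the few reads given. Both readings share the WT pairs.

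In the authors' deposited table, which compares IP with input within a genotype, 1118 genes were higher and 891 lower in the IP of NF110 KO at an adjusted p under 0.05, 1485 and 1169 in that of NF90+NF110 KO, and 1862 and 1663 in that of WT. These counts cover genes with an adjusted p in that table, 12120, 11342 and 12120 of the genes tested here.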

How the data were processed

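The RIP-seq libraries of NF110 KO, NF90+NF110 KO and WT cells were used as deposited. FPKM and the second table's normalised counts (a signal, whole reads divided by a size factor) were made by the authors, as were the log2 fold changes and adjusted p-values of IP over input, which per the file headers come from DESeq2. Per the submitters' processing notes, the build was mm10 and the tools included HTSeq 0.6.1, TopHat2 2.0.10 and Cufflinks 2.2.1 with Cuffnorm. Whole reads were recovered from the normalised counts to within 0.1 of a whole number, and their sums give the depth per library.

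Differences per pair were fitted in limma 3.58.1 (R 4.3.3, trend and robust moderation, 9 pairs, 6 residual degrees of freedom). The third genotype adds to the estimate of spread. P-values were adjusted by Benjamini-Hochberg over 12429 genes, two-sided. IP and input libraries were also fitted alone. A pseudocount of 1 understates the change of low genes. Alternatives covered filters, pseudocounts, scaling, pairing, moderation, edgeR 4.0.16 and DESeq2 1.42.0 on the recovered reads, and each pair left out. The fits were tried on simulated data with known changes and independent noise per gene. Shifts shared by many genes of a pair were not simulated, so the simulation does not bear on how many calls here are false. Each IP correlated with its own input after group means were removed (r = 0.554 to 0.838 across genes), and the pairing follows the labels' numbers.

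Named were Ilf2, the 10 largest called differences in each direction among genes averaging an FPKM of 1 or more whose pairs did not overlap (predicted and clone-named genes and short RNAs skipped), and up to 3 members of smallest p from each of 14 lists. Other genes are said to be named after their values were seen. The comparison, lists and members were chosen with earlier results of these data known. Genes were placed with RefSeq coordinates of GRCm38.p6. No transcript sequence was used here. The targeted gene and some list members that the rule names are not reported here.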

Additional observations from a re-analysis of the deposited data

Results flagged for a closer look

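Differences between NF110 KO and WT that passed the test of the difference itself are 887 genes in enrichment, with 1 for NF90+NF110 KO against WT and 537 for NF110 KO against NF90+NF110 KO. The named genes among the 887, as NF110 KO minus WT, follow.

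Lower were Fgf22 (-1.32), Prap1 (-0.93), Crybb3 (-0.91), Rangrf (-0.76), Adat3 (-0.75), Hist3h2ba (-0.69), Ppp1r13l (-0.63), Rpl36 (-0.63), Ccdc74a (-0.62), Msmp (-0.60), Wwp2 (-0.60), Hspg2 (-0.57), Csrnp1 (-0.57), Phc1 (-0.52), Lama5 (-0.50), Col4a2 (-0.45), Utf1 (-0.39), Myc (-0.38), Dis3l2 (-0.37), Ppp1r15a (-0.36), Cbx2 (-0.32), Rn45s (-0.32), Sesn2 (-0.29), Srrt (-0.29) and Shmt2 (-0.27).

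Higher were Rps27rt (2.98), Lsm5 (1.49), Zfp936 (1.40), Trappc2 (1.27), Tmsb15l (1.22), Zfp808 (1.14), Zfp930 (1.09), Cox20 (1.07), Zfp534 (1.06), Glipr1 (1.01), Eif2s3y (0.84), Rpl39 (0.76), Rpl22l1 (0.75), Zfp942 (0.74), Eif5 (0.70), Ssr3 (0.70), Suz12 (0.65), Zfp607 (0.61), Sec63 (0.50), Rpl15 (0.50), Sec62 (0.46), Npm1 (0.44), Ezh2 (0.39), Eif1a (0.36), Canx (0.33) and Hspa4 (0.27).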

How the results depend on the processing

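All calls in the NF110 KO minus WT enrichment kept their sign in every limma alternative, and 99.7% and 99.9% in edgeR and DESeq2, but their number did not hold. Against 887, there were 0 with no filter (18425 genes), a pseudocount of 0.1, the 6 pairs alone, the replicate block across genotypes or IP and input unpaired (1544 to 4336 genes at an unadjusted p under 0.05), 1822 at a mean FPKM of at least 5 (9009 genes), 1855 with a pseudocount of 5, 2494 by edgeR and 1567 by DESeq2, and 0 to 1690 with a pair left out. For NF90+NF110 KO minus WT (1), there were 0 with no filter, pseudocount 0.1, the 6 pairs alone, quantile scaling, the level trend removed, the block, unpaired libraries or no moderation, 646 at a mean FPKM of at least 5, 751 with pseudocount 5, 1182 by edgeR, 719 by DESeq2, and 0 to 471 with a pair left out. For NF110 KO minus NF90+NF110 KO (537), there were 11 with no filter, 4 with pseudocount 0.1, 0 with the 6 pairs alone, 1 with quantile scaling, the block or unpaired libraries, 283 with the level trend removed, 1397 at a mean FPKM of at least 5, 1338 with pseudocount 5, 1933 by edgeR, 1250 by DESeq2, and 0 to 634 with a pair left out. The IP alone gave 1 call, Gm16853, with median centring, without trend and robust moderation, and without NF110 KO replicate 3 (0 to 1 with a pair left out). The cause of these moves was not tested. The narrower spread in NF110 KO kept its direction under every filter, pseudocount, scaling and left-out pair tried. Deviations in enrichment of same-numbered pairs correlated between genotypes at -0.181 to 0.238. In the IP alone, a replicate block across genotypes gave 0 calls and 1091 genes at an unadjusted p under 0.05 (limma), against 696 without it. The correlations were taken on enrichment only, so they do not settle whether replicate numbers pair the genotypes in the IP or input. Rps27rt and Tmsb15l have no counted reads, so edgeR gave them no value. Depth limits genes with few reads, and intervals between 3 pairs are wide.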
